A study of Homo sapiens with 14 samples.

Results

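The proteasome is the barrel-shaped protease of the nucleus and cytosol that degrades ubiquitin-tagged proteins into peptides. Its 20S core is built of outer rings of alpha subunits (PSMA genes) and inner rings of beta subunits (PSMB genes), and only PSMB5, PSMB6 and PSMB7 carry the cutting sites in the constitutive form. Interferon gamma and other inflammatory signals induce PSMB8, PSMB9 and PSMB10, which take the places of PSMB5, PSMB6 and PSMB7 in newly assembled cores, so that the immunoproteasome makes more peptides suited to MHC class I. Caps open the core: the 19S cap of PSMC ATPases and PSMD subunits binds ubiquitin chains, whereas the 11S cap PA28, made of PSME1 and PSME2, opens it without ubiquitin. PSMG genes encode chaperones of core assembly.

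The 49 genes described here are the protein-coding rows of the deposited count table, of 36555 rows in all, whose name begins with PSMA to PSMG and a digit. Of these, 47 are named subunits, caps, an inhibitor or assembly chaperones, and PSMC3IP and PSME3IP1 match by name only. A filter on low counts kept 48 of them among 22179 genes tested. The gene left out, PSMB11, encodes the catalytic subunit of the thymic proteasome and had 4 counts over all 14 libraries. PSMA8 was not analysed here.

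RNA came from HT-29, a human colorectal carcinoma cell line, and the study asked how the ferroptosis inhibitors ferrostatin-1 and liproxstatin-1 act while human recombinant TNF-a, a cytokine, induces apoptosis. The groups were TNF-a + liproxstatin-1 (2 libraries), TNF-a + ferrostatin-1 (3), TNF-a (2), liproxstatin-1 (2), ferrostatin-1 (2) and control (3), the last in medium with 0.1% DMSO. All cells were labelled wild type. TNF-a was given at 100 ug/ml and either compound at 20 uM, for 72 h, and the labels give no time for the control. Libraries of a group are called technical replicates in the study's design text, so p-values measure only the spread between these libraries.

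Libraries held 59913850 to 75838597 counts. TNF-a library 1 stood apart: of the 48 genes tested, 11 had their lowest and 25 their highest value of all 14 libraries there, beside 22.2% and 19.6% of all genes tested. The chi-square per degree of freedom between its counts and those of TNF-a library 3 was 203, and between any other pair of libraries of a group it was 14.9 to 74.3. Values in TNF-a against control are also given without it where that ended or made a call or moved the value by over 1.5 times. All 8 colon epithelial markers were detected in every group, with summed levels of 9225 to 13824 normalised counts (CPM, scaled for library size) with TNF-a and 9953 to 12067 without. These sums are mostly KRT8 and KRT18. CDH1 (E-cadherin) was lower in every library with TNF-a than in every library without it, at 306 to 382 CPM with TNF-a and 498 to 670.5 CPM without, and so was VIL1 (villin), at 96.1 to 141 CPM with TNF-a and 159 to 189 CPM without, whereas the other 6 overlapped. For 3 leukocyte markers the sums were 11.6 to 21.4 with TNF-a and 7.22 to 19.4 without, nearly all from CD68, while PTPRC was at 0 in every library with TNF-a. The 2 endothelial markers summed to 2.33 to 40.4 with TNF-a and 0.846 to 32.1 without, and the 3 fibroblast markers to 1.87 to 33.6 and 2.36 to 13.0, highest in the TNF-a libraries. Their part in the results was not tested.

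The immunoproteasome genes and PA28 are known targets of interferon-activated factors, which bind the interferon-stimulated response element (ISRE). The stretches below run from 100 bases before a RefSeq transcription start to 20 after it (GRCh38.p14), except that of TAP1, which lies wholly upstream. They are shown because the immunoproteasome and PA28 genes lead the results, with TAP1 as the neighbour of PSMB9 and PSMB5 as a constitutive counterpart. Capitals mark the ISRE letters GAAANNGAAA on either strand and, in TAP1, also the NF-kB letters GGGNNTTNCC.
PSMB8 (chr6:32844028-32844147, - strand): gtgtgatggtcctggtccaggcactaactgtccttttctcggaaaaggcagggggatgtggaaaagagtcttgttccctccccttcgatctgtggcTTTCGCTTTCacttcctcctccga
PSMB10 (chr16:67936831-67936950, - strand): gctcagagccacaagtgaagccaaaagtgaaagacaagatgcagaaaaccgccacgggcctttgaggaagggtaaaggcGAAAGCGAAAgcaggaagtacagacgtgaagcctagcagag
PSME1 (chr14:24136094-24136213, + strand): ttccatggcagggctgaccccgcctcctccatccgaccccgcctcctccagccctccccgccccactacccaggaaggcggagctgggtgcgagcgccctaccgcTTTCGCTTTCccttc
PSME2 (chr14:24146591-24146710, - strand): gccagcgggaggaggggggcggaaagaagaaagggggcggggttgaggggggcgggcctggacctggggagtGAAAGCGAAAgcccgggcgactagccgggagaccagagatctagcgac
PSMB9 (chr6:32854092-32854211, + strand): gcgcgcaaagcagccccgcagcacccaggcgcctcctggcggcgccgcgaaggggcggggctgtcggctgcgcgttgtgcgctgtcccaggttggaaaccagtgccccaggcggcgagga
TAP1 (chr6:32853755-32853864, - strand): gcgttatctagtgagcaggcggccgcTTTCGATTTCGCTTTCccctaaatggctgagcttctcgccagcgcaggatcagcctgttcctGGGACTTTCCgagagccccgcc
PSMB5 (chr14:23034881-23035000, - strand): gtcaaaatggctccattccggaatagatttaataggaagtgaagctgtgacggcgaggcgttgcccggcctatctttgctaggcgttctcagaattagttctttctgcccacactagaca
The 10 letters GAAAGCGAAA, or their reverse complement, begin at position -4 from the start of PSMB8 (the second of its listed starts), -21 of PSMB10, 6 of PSME1 and -28 of PSME2, and also at -33 of PSMG4. The window of the first listed start of PSMB8 held no ISRE letters. PSMB5 is also shown at its second listed start, and no window of PSMB5 held them. In the 300-base windows that RefSeq gives around starts (250 before and 50 after), 43 of the 49 genes had 54 windows, of which 7 (13%) held the ISRE letters, against 3.57% of 35116 windows of all genes. The other genes with a match were PSMA4, PSMB4 and PSMG4. Every other motif searched was also in a larger share of the 54 windows than of all windows. The GAS letters TTCNNNGAA were in 13% against 7.66%, the ARE letters TGACNNNGC in 27.8% against 13.3%, CCAAT in 44.4% against 34.6% and the NF-kB letters in 7.41% against 5.68%. None of these shares was tested. For NF-kB, windows of PSMB8, PSMB9, PSMB10, PSME1 and PSME2 held none. PSMB9 had no ISRE letters in its own window, but its start lies 488 bases from that of TAP1, the peptide transporter gene on the opposite strand, whose stretch holds overlapping ISRE matches and GGGACTTTCC between the starts. PSMB6 and PSMB7 had no window and were not searched. A match is a run of letters, not a measured binding site, and no binding was measured here.

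Transcripts of all 3 immunoproteasome catalytic subunits were higher with TNF-a than without it, with and without either ferroptosis inhibitor. Of all genes tested, 14.9% were called in TNF-a + liproxstatin-1 against liproxstatin-1, 18.3% in TNF-a + ferrostatin-1 against ferrostatin-1 and 14.9% in TNF-a against control. Fold changes are from edgeR's quasi-likelihood test on counts, as log2 values, with Benjamini-Hochberg adjustment over all genes tested, and a gene is called at an adjusted p below 0.05. Gene positions are those of the deposited table and span the whole gene, and no source used here gives its genome build. Bulk RNA cannot tell apart a change in the share of cells that make a transcript from a change in the amount per cell. PSMB9 (ENSG00000240065, chr6:32844136-32859851, + strand), which takes the place of PSMB6, measured 85.9 and 71.1 CPM in TNF-a + liproxstatin-1 libraries, 80.4, 79.2 and 65.9 in TNF-a + ferrostatin-1 libraries and 127 and 83.6 in TNF-a libraries, against 19.8 and 17.8 in liproxstatin-1, 9.81 and 16.1 in ferrostatin-1 and 15.0, 13.1 and 15.5 in control libraries. No library with TNF-a overlapped one without it, as for 5.33% of all genes in this direction, and TNF-a library 1 was the highest of all. The log2 fold change of PSMB9 was 2.06 (adjusted p = 0.000259) in TNF-a + liproxstatin-1 against liproxstatin-1, 2.53 (adjusted p = 2.66e-05) in TNF-a + ferrostatin-1 against ferrostatin-1 and 2.86 (adjusted p = 3.85e-06) in TNF-a against control. No source used here gives the strand setting of the counting, and the annotated span of PSMB9 contains TAP1 on the opposite strand (8770 bases), which changed by 1.62, 1.93 and 2.61 in the same comparisons. It also shares 2365 bases with PSMB8-AS1, a non-coding RNA on the same strand whose own level was 6.21 to 9.21 CPM with TNF-a and 1.05 to 2.08 CPM without. Their part in the values of PSMB9 was not tested.

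PSMB8 (ENSG00000204264, chr6:32840717-32844679, - strand), which takes the place of PSMB5, had 144 and 134 CPM in TNF-a + liproxstatin-1 libraries, 147, 140.1 and 121 in TNF-a + ferrostatin-1 libraries and 191 and 135 in TNF-a libraries, against 54.1 and 58.9 in liproxstatin-1, 43.8 and 46.6 in ferrostatin-1 and 44.6, 45.3 and 47.8 in control libraries. Here too the libraries with and without TNF-a did not overlap, and those without it lay within 43.8 to 58.9 CPM. PSMB8 differed by 1.30 (adjusted p = 0.000203) in TNF-a + liproxstatin-1 against liproxstatin-1, 1.59 (adjusted p = 1.69e-05) in TNF-a + ferrostatin-1 against ferrostatin-1 and 1.83 (adjusted p = 2.4e-06) in TNF-a against control, with standard errors of 0.15, 0.14 and 0.13. PSMB10 (ENSG00000205220, chr16:67934506-67936850, - strand), which takes the place of PSMB7, showed 84.5 and 76.8 CPM in TNF-a + liproxstatin-1 libraries, 99.3, 101 and 87.1 in TNF-a + ferrostatin-1 libraries and 119 and 86.4 in TNF-a libraries, against 55.1 and 54.0 in liproxstatin-1, 51.1 and 50.3 in ferrostatin-1 and 49.4, 49.1 and 48.4 in control libraries. This gene was the least changed of the 3, also without overlap. Its log2 fold change was 0.57 (adjusted p = 0.0137) in TNF-a + liproxstatin-1 against liproxstatin-1, 0.92 (adjusted p = 0.000374) in TNF-a + ferrostatin-1 against ferrostatin-1 and 1.07 (adjusted p = 0.000105) in TNF-a against control. The span of PSMB10 shares 1512 bases with AC040162, a row on the same strand with 5979 counts beside 70178 of PSMB10. That of PSMB8 shares 602 bases with PSMB8-AS1 and 544 with PSMB9, both on the opposite strand. The part of these rows in the values was not tested. The call of PSMB10 with liproxstatin-1 was lost when liproxstatin-1 library 1 or 3 or TNF-a + liproxstatin-1 library 1 was left out (adjusted p = 0.0799, 0.0908 and 0.111). Without TNF-a library 1 the fold changes in TNF-a against control were 2.53 (adjusted p = 1.1e-05) for PSMB9, 1.56 (adjusted p = 3.28e-07) for PSMB8 and 0.82 (adjusted p = 6.36e-05) for PSMB10, all still called.

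**Figure D1:**
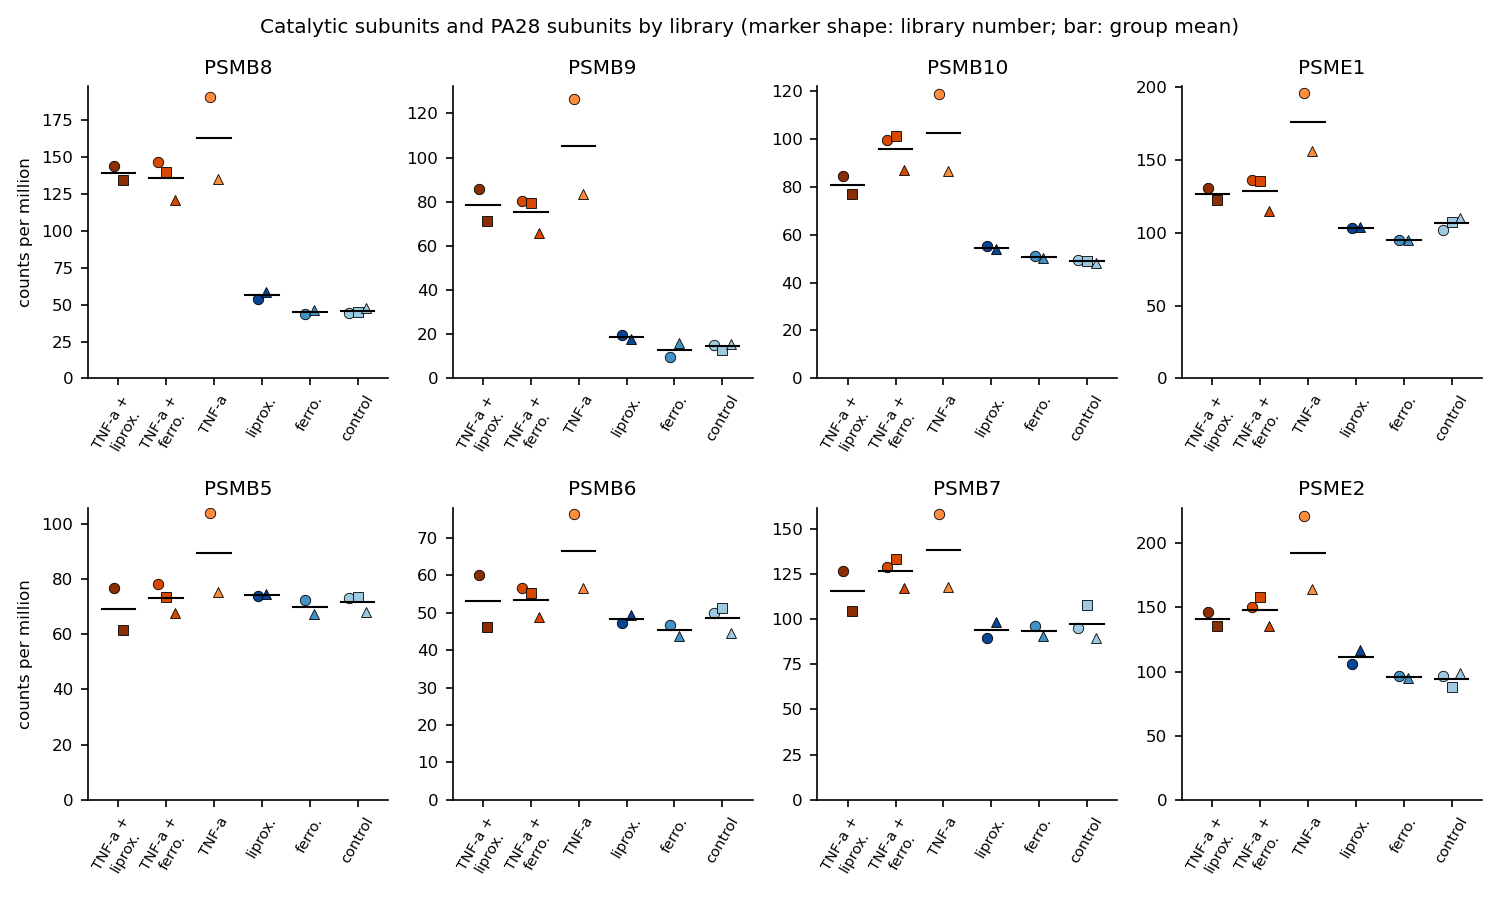
Normalised counts in CPM (y axis, linear, from 0) of the catalytic and PA28 subunits in each of the 14 libraries, by group (x axis), with bars at group means and marker shapes for library numbers. PSMB8, PSMB9, PSMB10, PSME1 and PSME2 are higher in every library with TNF-a than in every library without it, whereas PSMB5 overlaps.

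None of the 3 constitutive subunits that they replace was called lower with TNF-a. PSMB5 (ENSG00000100804, chr14:23016543-23034900, - strand) had 76.8 and 61.5 CPM in TNF-a + liproxstatin-1 libraries, 78.0, 73.6 and 67.8 in TNF-a + ferrostatin-1 libraries and 104 and 75.2 in TNF-a libraries, against 73.8 and 74.7 in liproxstatin-1, 72.3 and 67.3 in ferrostatin-1 and 73.0, 73.4 and 68.1 in control libraries. The groups overlapped except for TNF-a against control, and no test of PSMB5 with and without TNF-a was called: its log2 fold change was -0.10 (95% interval -0.42 to 0.22) with liproxstatin-1, 0.07 (-0.23 to 0.36) with ferrostatin-1 and 0.32 (0.03 to 0.61) against control, where it was 0.07 (adjusted p = 0.806) without TNF-a library 1. PSMB6 (ENSG00000142507, chr17:4796144-4798502, + strand) measured 60.1 and 46.3 CPM in TNF-a + liproxstatin-1 libraries, 56.5, 55.2 and 48.8 in TNF-a + ferrostatin-1 libraries and 76.5 and 56.7 in TNF-a libraries, against 47.2 and 49.4 in liproxstatin-1, 46.7 and 43.9 in ferrostatin-1 and 50.0, 51.2 and 44.7 in control libraries. The call of PSMB6 in TNF-a against control (0.45, adjusted p = 0.0495) lay at the threshold and was lost in 19 of 22 alternative settings, among them without TNF-a library 1, at 0.22 (adjusted p = 0.382). For PSMB6 the libraries with and without TNF-a overlapped over all, although both TNF-a libraries lay above the 3 controls. PSMB7 (ENSG00000136930, chr9:124353465-124415442, - strand) had 127 and 104 CPM in TNF-a + liproxstatin-1 libraries, 129, 133 and 117 in TNF-a + ferrostatin-1 libraries and 158 and 118 in TNF-a libraries, against 89.3 and 98.3 in liproxstatin-1, 96.1 and 90.7 in ferrostatin-1 and 95.1, 108 and 89.2 in control libraries. PSMB7 was called in TNF-a + ferrostatin-1 against ferrostatin-1 (0.44, adjusted p = 0.0434) and in TNF-a against control (0.50, adjusted p = 0.0266, and 0.27 and not called without TNF-a library 1), and with liproxstatin-1 the change was 0.30 (adjusted p = 0.212). For PSMB7 TNF-a + liproxstatin-1 library 2 lay below control library 2, and all other libraries with TNF-a lay above all without.

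Levels of different genes are comparable only per length, so each pair was set on the authors' FPKM scale, as the share of the immunoproteasome subunit in the sum of the pair. FPKM columns could be matched to single samples in 3 of the groups, which differ in the compound as well as in TNF-a, and the shares were not tested. PSMB8 made up 47.4% ± 2.71 (SD, n = 2) of PSMB8 plus PSMB5 in TNF-a + liproxstatin-1 and 45.3% ± 0.828 (SD, n = 3) in TNF-a + ferrostatin-1, against 22.2% ± 1.34 (SD, n = 3) in control libraries. PSMB9 made up 39.1% ± 1.21 (SD, n = 2) of PSMB9 plus PSMB6 in TNF-a + liproxstatin-1 and 37.8% ± 0.763 (SD, n = 3) in TNF-a + ferrostatin-1, against 11.5% ± 1.56 (SD, n = 3) in control libraries. The PSMB10 share of PSMB10 plus PSMB7 moved least, with 43.5% ± 1.71 (SD, n = 2), 45.5% ± 0.467 (SD, n = 3) and, in control libraries, 35.7% ± 2.09 (SD, n = 3). In all 3 pairs the libraries with TNF-a and those of the control did not overlap. On the FPKM scale the constitutive transcript was the larger part of its pair in every one of the 8 libraries. PSMB8 in TNF-a + liproxstatin-1 library 2 was closest to equal, at 49.3%. This order depends on the gene lengths behind the FPKM values, which were not examined. Unscaled counts in that library were 9870 for PSMB8 and 4519 for PSMB5, and 5222 for PSMB9 and 3402 for PSMB6. For PSMB10 and PSMB7 they were 5645 and 7668. Protein and assembled particles were not measured.

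**Figure D2:**
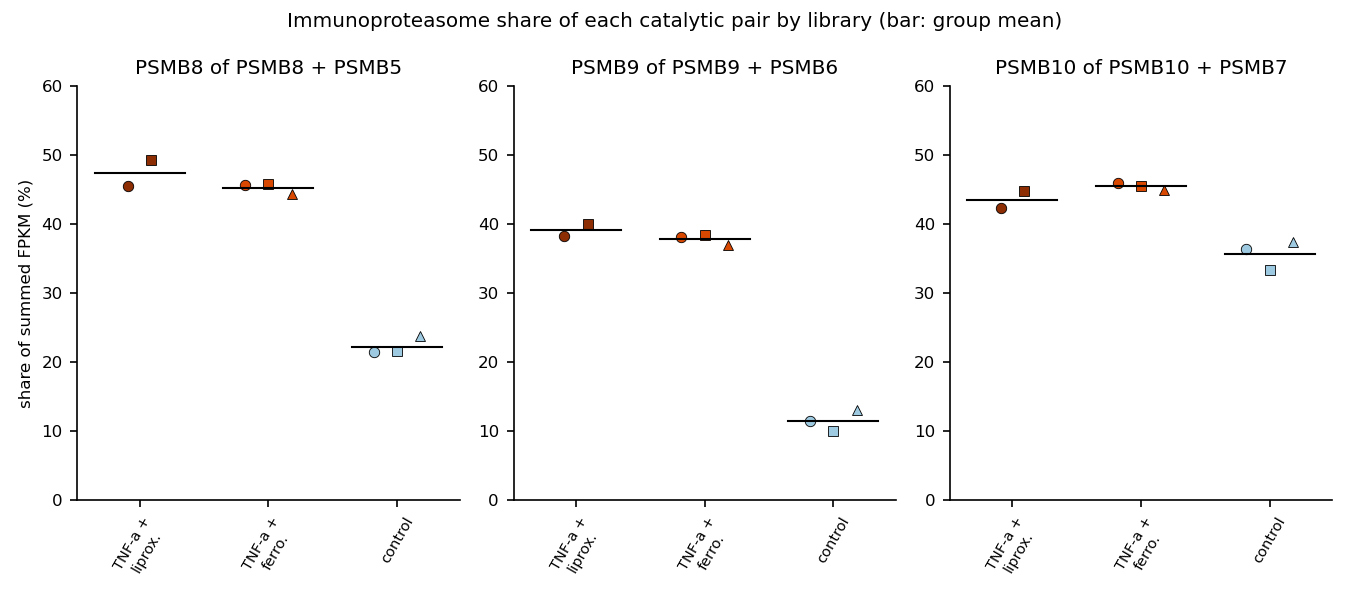
Share of the immunoproteasome subunit in the summed FPKM of each catalytic pair (y axis, percent, from 0) by library in 3 groups (x axis), with bars at group means. The PSMB8 share is 44.3% to 49.3% in libraries with TNF-a and 21.4% to 23.8% in control libraries, and the PSMB9 share 36.9% to 40.0% and 9.93% to 13.1%.

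The change of a pair needs no length, so in all 14 libraries the log2 ratio of the pair's counts was set against its mean over the control libraries. For PSMB8 over PSMB5 this shift was 1.55 and 1.77 in TNF-a + liproxstatin-1, 1.55, 1.57 and 1.48 in TNF-a + ferrostatin-1 and 1.52 and 1.48 in TNF-a, against 0.19 and 0.30 in liproxstatin-1, -0.09 and 0.11 in ferrostatin-1 and -0.07, -0.06 and 0.13 in control libraries. The shift of PSMB9 over PSMB6 was 2.18 to 2.47 in libraries with TNF-a and -0.50 to 0.49 in those without, and that of PSMB10 over PSMB7 was 0.40 to 0.61 and -0.15 to 0.29. Libraries with and without TNF-a did not overlap in any pair. The values of TNF-a libraries 1 and 3 were close together, at 2.47 and 2.31 for PSMB9 over PSMB6 and 0.57 and 0.54 for PSMB10 over PSMB7, although their levels of the single genes differed more.

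Both PA28 subunits were higher with TNF-a alone and with ferrostatin-1. PSME2 (ENSG00000100911, chr14:24143362-24147570, - strand), the beta subunit, had 146 and 135 CPM in TNF-a + liproxstatin-1 libraries, 150.2, 158 and 135 in TNF-a + ferrostatin-1 libraries and 221 and 164 in TNF-a libraries, against 106 and 117 in liproxstatin-1, 96.9 and 94.6 in ferrostatin-1 and 96.2, 88.3 and 98.6 in control libraries. PSME1 (ENSG00000092010, chr14:24136163-24138967, + strand), the alpha subunit, had 130.5 and 122 CPM in TNF-a + liproxstatin-1 libraries, 136, 135 and 115 in TNF-a + ferrostatin-1 libraries and 196 and 156 in TNF-a libraries, against 103 and 104 in liproxstatin-1, 95.2 and 94.8 in ferrostatin-1 and 102, 107 and 109.9 in control libraries. No library with TNF-a overlapped one without it for either gene, and the TNF-a libraries were the highest. PSME2 changed by 0.33 (adjusted p = 0.116) in TNF-a + liproxstatin-1 against liproxstatin-1, 0.63 (adjusted p = 0.00382) in TNF-a + ferrostatin-1 against ferrostatin-1 and 1.03 (adjusted p = 0.000132) in TNF-a against control. PSME1 changed by 0.29 (adjusted p = 0.123) in TNF-a + liproxstatin-1 against liproxstatin-1, 0.44 (adjusted p = 0.0141) in TNF-a + ferrostatin-1 against ferrostatin-1 and 0.72 (adjusted p = 0.000735) in TNF-a against control. The comparison with liproxstatin-1 was not called for either gene, with 95% intervals of 0.05 to 0.62 for PSME2 and 0.04 to 0.54 for PSME1. Both were called when TNF-a library 1 was left out, at 0.34 (adjusted p = 0.0147) and 0.29 (adjusted p = 0.0251), and the changes in TNF-a against control were 0.80 (adjusted p = 0.000153) for PSME2 and 0.55 (adjusted p = 0.00202) for PSME1. PSME1 was also the one member called lower when a compound was added to TNF-a (-0.45, adjusted p = 0.0335 in TNF-a + ferrostatin-1 against TNF-a, beside 4.15% of all genes), a call lost without TNF-a library 1 and in 14 of 22 alternative settings. The annotated span of PSME2 shares 888 bases with RNF31 on the opposite strand, whose level was 11.6 to 30.6 CPM with TNF-a and 5.69 to 16.3 CPM without. Its part in the values of PSME2 was not tested.

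Over all 48 genes, 8 were called higher and 1 lower in TNF-a + liproxstatin-1 against liproxstatin-1, where 7.69% of all genes tested were higher and 7.21% lower. In TNF-a + ferrostatin-1 against ferrostatin-1, 16 were higher and 2 lower, beside 8.84% and 9.46% of all genes. In TNF-a against control, 18 were higher and 1 lower, beside 8.40% and 6.49%, and 12 and 0 without TNF-a library 1 (beside 4.96% and 4.62%), with 36 calls in all without library 3. The count with liproxstatin-1 was 2 to 4 without any 1 of its own 4 libraries and 18 without either TNF-a library, and that with ferrostatin-1 was 7 without either ferrostatin-1 library, 8 and 9 without TNF-a + ferrostatin-1 library 1 or 2, and 28 without either TNF-a library. Without TNF-a library 1, 11.8% of all genes were higher and 11.8% lower with liproxstatin-1, and 12.6% and 14.2% with ferrostatin-1. For the other libraries left out, the shares of all genes are not given here. The median log2 fold change of the 48 genes was 0.13, 0.24 and 0.23 in the 3 comparisons with and without TNF-a, against 0.06, 0.02 and -0.02 over all genes tested. These 3 comparisons share no library, only the estimate of the spread, and 7 genes were called higher in each of them, as were 3.30% of all genes: PSMB8, PSMB9, PSMB10, PSMA6, PSMB2, PSMD2 and PSMG2. Of these, PSMD2 was at the threshold with each compound. With liproxstatin-1, the calls of PSMB2, PSMA6, PSMB10 and PSMG2 were lost in 5, 4, 3 and 2 of 22 alternative settings. When TNF-a with and without was averaged over the 3 backgrounds, 23 genes were higher and 4 lower, beside 17.6% and 16.3% of all genes. Of the 41 members outside PSMB8, PSMB9, PSMB10, PSME1, PSME2 and the 2 name matches, 17 were higher and 4 lower, with a median of 0.17. In 11 of the 48 genes every library with TNF-a was above every library without it, and in 0 it was below (5.33% and 4.27% of all genes). Without TNF-a library 1 these numbers were 15 and 1 (7.21% and 7.14%).

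In the alpha ring, PSMA6 stood out. PSMA6 (ENSG00000100902, chr14:35278633-35317493, + strand), an alpha subunit, had 99.3 and 82.2 CPM in TNF-a + liproxstatin-1 libraries, 118, 116 and 97.4 in TNF-a + ferrostatin-1 libraries and 123 and 109.9 in TNF-a libraries, against 63.6 and 70.6 in liproxstatin-1, 67.9 and 69.0 in ferrostatin-1 and 62.9, 58.7 and 61.8 in control libraries. It was higher by 0.43 (adjusted p = 0.032) in TNF-a + liproxstatin-1 against liproxstatin-1, 0.69 (adjusted p = 0.00127) in TNF-a + ferrostatin-1 against ferrostatin-1 and 0.93 (adjusted p = 0.00016) in TNF-a against control, and the libraries with and without TNF-a did not overlap. The table lists AL121594, a row on the same strand that covers nearly the same span and held 9587 counts beside 83231 of PSMA6, so reads may be split between them. PSMA1 and PSMA5 were called with ferrostatin-1 (0.32 and 0.35), and the remaining 4 alpha subunits in none of the 3 comparisons. Among the structural beta subunits, PSMB2 was higher in all 3 comparisons (0.45, 0.53 and 0.54 with liproxstatin-1, with ferrostatin-1 and against control), at 185 to 247 CPM with TNF-a and 140.2 to 175 CPM without. PSMB3 was called with ferrostatin-1 (0.48, adjusted p = 0.0496) and against control (0.57), and PSMB4 against control only (0.55). Both calls against control were lost without TNF-a library 1 (0.31 and 0.27). PSMB1 was called in none.

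Of the 17 base and lid subunits of the 19S cap, 2, 2 and 5 were called higher with liproxstatin-1, with ferrostatin-1 and against control, beside 7.69%, 8.84% and 8.40% of all genes, and none lower. With all 14 libraries the counts with a compound were close to those shares. Without TNF-a library 1, 5 and 8 were higher with liproxstatin-1 and with ferrostatin-1, beside 11.8% and 12.6% of all genes. In the same fit 1 and 1 were lower, beside 11.8% and 14.2%. PSMD2, a base scaffold that binds ubiquitin shuttle factors, was called in all 3 (0.27, 0.25 and 0.36), and its libraries with TNF-a, at 334 to 364 CPM, lay above those without, at 263 to 301 CPM. Its calls with liproxstatin-1 (adjusted p = 0.0499) and ferrostatin-1 (adjusted p = 0.0453) were lost in 15 of 22 and 13 of 22 alternative settings, among them without any 1 library of the groups compared. PSMC2, one of 6 ATPases, was called with each compound (0.55 and 0.57) but at 0.12 not against control, where TNF-a library 1 had 82.6 CPM and library 3 had 130.2. Without library 1 the change was 0.41 (adjusted p = 0.0236). The call of PSMC2 with liproxstatin-1 (adjusted p = 0.0475) was lost in 15 of 22 alternative settings, among them another scaling, the replicate block and without any 1 library of the groups compared. PSMD4, which holds ubiquitin chains, and the lid subunits PSMD3, PSMD11 and PSMD13 were called against control only (0.48, 0.39, 0.47 and 0.52), and PSMD4 and PSMD13 lost the call without TNF-a library 1 (0.30 and 0.34). In the average over backgrounds PSMD8, a lid subunit, was lower (-0.24, adjusted p = 0.0381), a call kept in 11 of 21 alternative settings. PSMD14, which removes ubiquitin from substrates, was not called in any of the 3 comparisons and had 39.8 CPM in TNF-a library 1 against 81.7 to 104 in the other libraries.

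Assembly chaperones went in both directions. PSMG2, which pairs with PSMG1 to build the alpha ring, was higher in all 3 comparisons (0.47, 0.58 and 0.44), with 62.0 to 74.7 CPM in libraries with TNF-a and 43.7 to 56.3 CPM without. PSMG4 was higher with ferrostatin-1 (0.60, adjusted p = 0.0104). The chaperones of the 19S base did not move together. PSMD9 was lower with ferrostatin-1 (-0.41, adjusted p = 0.0393), PSMD5 with liproxstatin-1 (-0.36, adjusted p = 0.0199), and PSMD10 was higher with ferrostatin-1 (0.34, adjusted p = 0.041). PSMF1, an inhibitor that binds the core, was lower with ferrostatin-1 (-0.40, adjusted p = 0.039). PSME3, the nuclear PA28 gamma, was not called, at -0.33, -0.22 and 0.08 (-0.04 against control without TNF-a library 1). The calls of PSMD9, PSMD10 and PSMF1 were each lost without any single library of TNF-a + ferrostatin-1 or ferrostatin-1. That of PSMD5 was lost in 5 of 22 alternative settings. These were the replicate block and leaving out any single library of TNF-a + liproxstatin-1 or liproxstatin-1. Of the name matches, PSME3IP1 was higher and PSMC3IP lower in TNF-a against control (0.28 and -0.43), and neither was called without TNF-a library 1 (0.22 and -0.39).

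**Figure D3:**
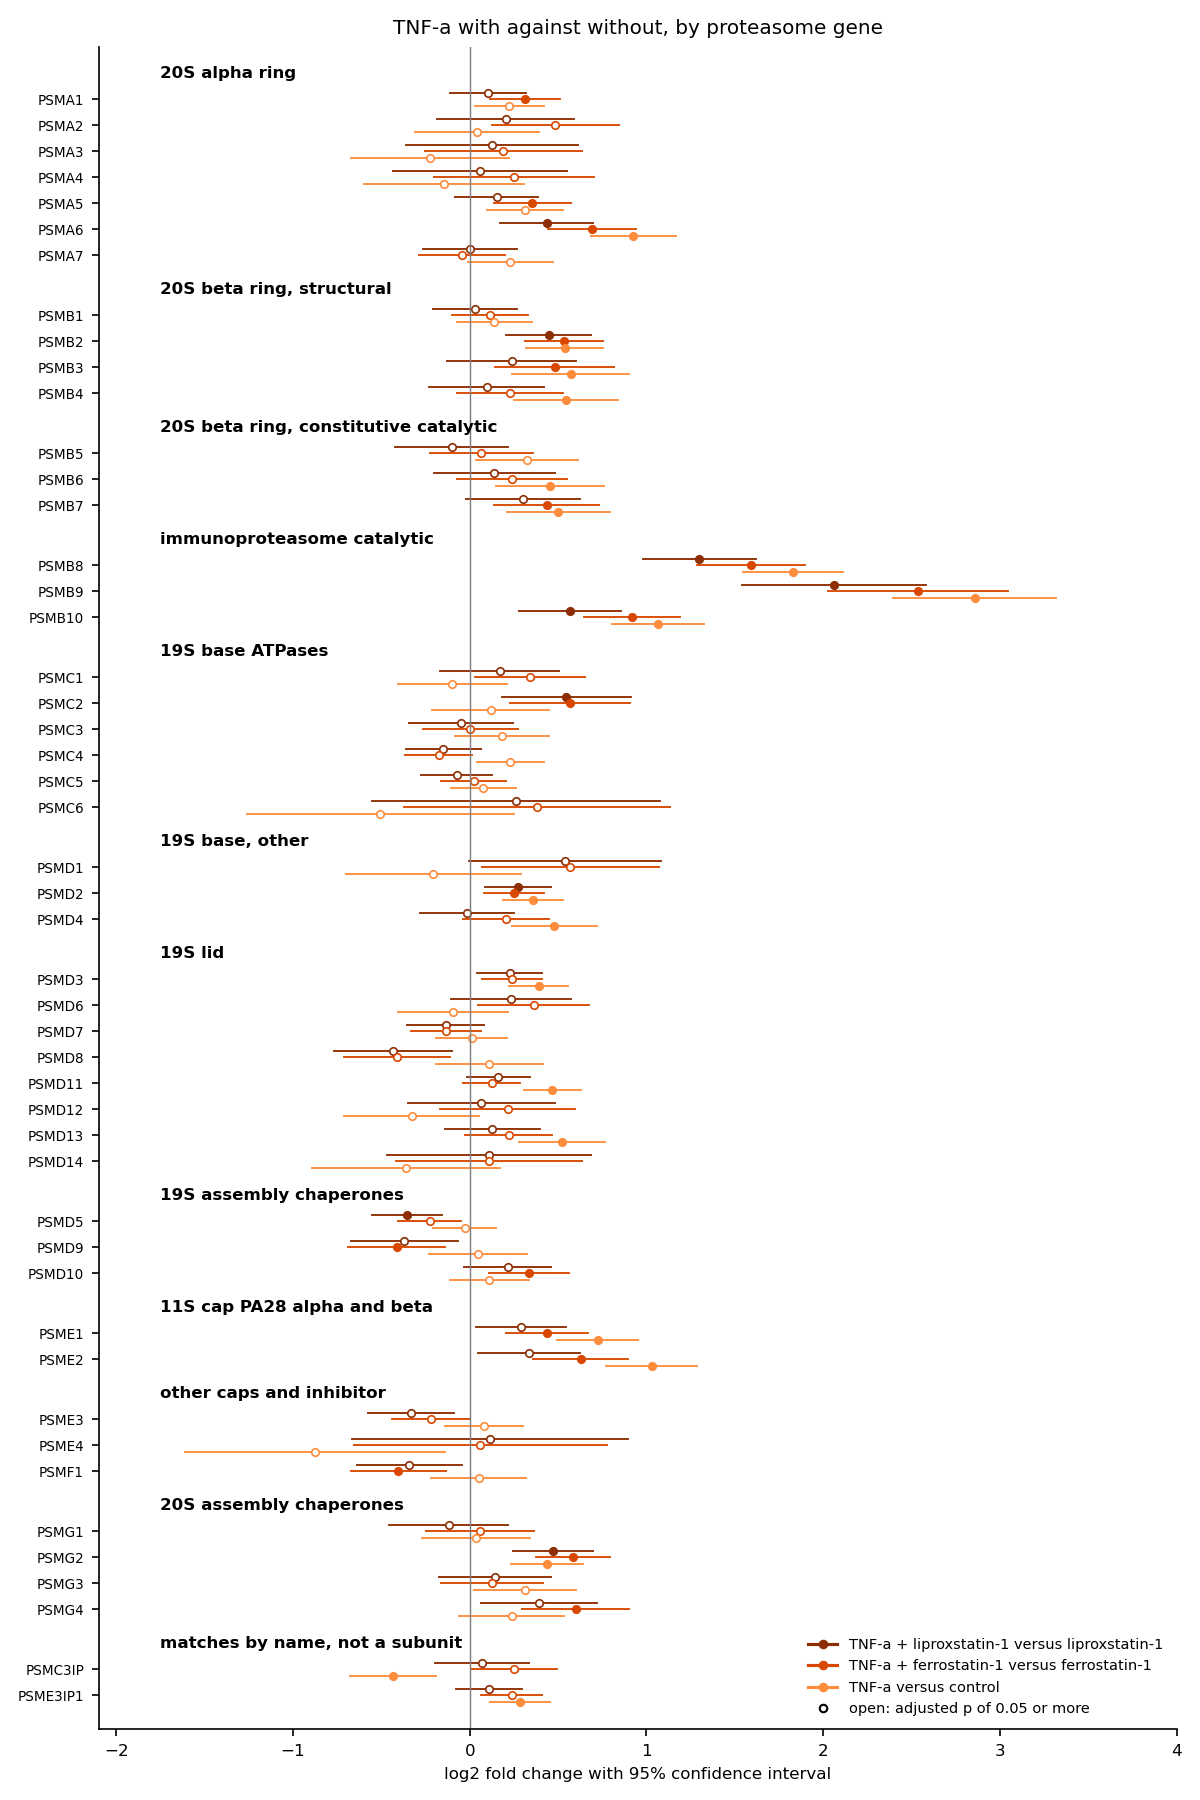
Log2 fold change with its 95% interval (x axis) of the 48 genes tested (y axis, grouped by role) in the 3 comparisons with against without TNF-a, filled where the adjusted p is below 0.05. The immunoproteasome catalytic subunits lie between 0.57 and 2.86, and the intervals of PSMC6 and PSME4 in TNF-a against control are the widest.

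No member was called with either compound alone. In liproxstatin-1 against control and in ferrostatin-1 against control 0 of 48 genes were called (0.0902% and 0.667% of all genes), with 3 and 4 at an unadjusted p below 0.05. DESeq2 called 0 and 2, and limma voom with quality weights 2 and 3. For unadjusted p, DESeq2 and voom, the shares of all genes are not given here. PSMB8 changed by 0.30 (95% interval 0.01 to 0.59, adjusted p = 0.39) in liproxstatin-1 and -0.02 (-0.31 to 0.27) in ferrostatin-1, and PSMB9 by 0.37 (-0.08 to 0.83) and -0.16 (-0.63 to 0.30). Between the compounds at matched dose and time, 0 of 48 genes differed with TNF-a (0.785% of all genes) and 0 without (0.104%), with 2 and 2 at an unadjusted p below 0.05 and 0 and 0 by DESeq2. In TNF-a + liproxstatin-1 against TNF-a + ferrostatin-1 the difference was 0.03 (-0.25 to 0.32) for PSMB8, 0.06 (-0.39 to 0.52) for PSMB9, -0.25 (-0.51 to 0.01) for PSMB10 and -0.07 (-0.33 to 0.19) for PSME2. In liproxstatin-1 against ferrostatin-1 it was 0.32 (0.01 to 0.64, adjusted p = 0.763) for PSMB8 and 0.54 (0.03 to 1.04, adjusted p = 0.744) for PSMB9, the genes with an unadjusted p below 0.05.

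Whether a compound altered the response to TNF-a was tested as an interaction, the fold change with the compound minus that against control. For PSMB8 it was -0.53 (-0.96 to -0.10, adjusted p = 0.183) with liproxstatin-1 and -0.24 (-0.64 to 0.17, adjusted p = 0.503) with ferrostatin-1. PSME2 had the smallest p of the members with liproxstatin-1, at -0.69 (-1.08 to -0.31, adjusted p = 0.123). When TNF-a library 1 was left out, the interaction of PSMB8 was -0.26 (adjusted p = 0.426) with liproxstatin-1 and 0.03 (adjusted p = 0.974) with ferrostatin-1, and that of PSME2 with liproxstatin-1 was -0.46 (adjusted p = 0.132). None of the 48 genes was called with liproxstatin-1 (0.00% of all genes) or ferrostatin-1 (0.104%). At an unadjusted p below 0.05 there were 17 and 10, beside 4322 and 4231 of the 22179 genes. DESeq2 called 3 and 3, and its shares of all genes are not given here. Added to TNF-a, liproxstatin-1 gave 0 calls (0.374% of all genes). There were 19 members at an unadjusted p below 0.05 and 9 called by DESeq2, and the shares of all genes by these 2 rules are not given here. Ferrostatin-1 gave 2 calls higher and 1 lower (1.84% and 4.15%). The higher were PSME4, the PA200 cap (1.36, adjusted p = 0.044), and PSMD12, a lid subunit (0.75, adjusted p = 0.0359). All 3 calls were lost when any 1 library was left out other than control library 2 or 3 or a TNF-a library, and with voom.

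The comparisons with TNF-a alone, interactions included, contain its 2 libraries, which differed from each other. PSME4 had 116 and 130.1 CPM in TNF-a + liproxstatin-1 libraries, 131, 137 and 144 in TNF-a + ferrostatin-1 libraries and 25.5 and 81.7 in TNF-a libraries, against 114 and 112 in liproxstatin-1, 128 and 135 in ferrostatin-1 and 102, 87.5 and 105 in control libraries. PSMD12 had 169 and 165 CPM in TNF-a + liproxstatin-1 libraries, 189, 189 and 177 in TNF-a + ferrostatin-1 libraries and 78.3 and 142 in TNF-a libraries, against 156 and 163 in liproxstatin-1, 166 and 153 in ferrostatin-1 and 138, 132 and 144 in control libraries. TNF-a library 1 was the lowest of all libraries for both. PSMC6, an ATPase, had 70.8 and 64.1 CPM in TNF-a + liproxstatin-1 libraries, 71.6, 77.9 and 61.3 in TNF-a + ferrostatin-1 libraries and 17.9 and 59.8 in TNF-a libraries, against 54.9 and 57.7 in liproxstatin-1, 57.7 and 50.4 in ferrostatin-1 and 54.7, 55.2 and 55.4 in control libraries. PSMC6 was also lowest in library 1, and every other library had at least 50.4 CPM. Without library 1 the changes in TNF-a + ferrostatin-1 against TNF-a were 0.75 for PSME4 and 0.38 for PSMD12. How many members were called in these comparisons depended on which TNF-a library was kept, and shares of all genes are not given for that choice. Library 1 also held the lowest value of 22.2% and the highest of 19.6% of all genes tested. In all, 9 of the 48 genes were over 1.5 times lower in library 1 than in library 3, and 1 was over 1.5 times higher. What set library 1 apart was not tested.

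**Figure D4:**
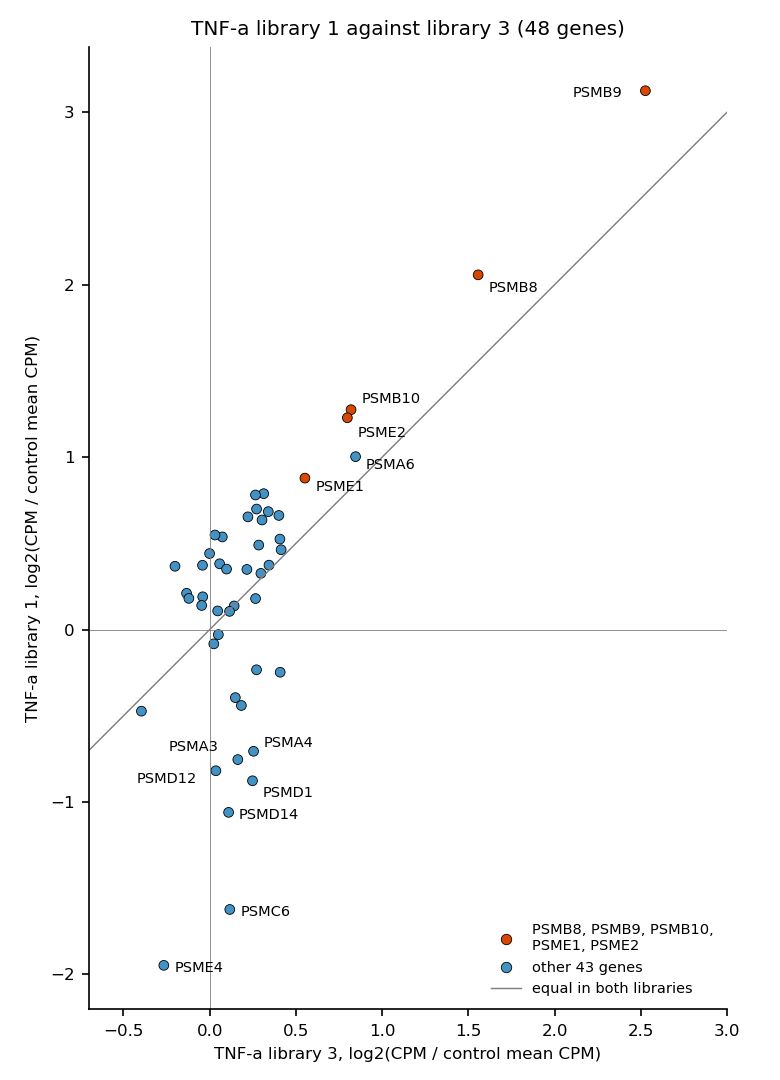
Log2 ratio of each of 48 genes to its mean over the control libraries in TNF-a library 1 (y axis) against TNF-a library 3 (x axis), with a line where both are equal. PSMB9 and PSMB8 lie high in both libraries, whereas PSME4, PSMC6, PSMD14 and PSMD1 are below control in library 1 and between -0.27 and 0.25 of it in library 3.

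Among 20 regulators of interferon signalling and peptide supply, 10, 11 and 14 were called higher in the comparisons with liproxstatin-1, with ferrostatin-1 and against control, beside 7.69%, 8.84% and 8.40% of all genes, and none lower. Without TNF-a library 1, 12 and 14 were higher with liproxstatin-1 and with ferrostatin-1, beside 11.8% and 12.6% of all genes. In that fit 1 and 1 were lower, beside 11.8% and 14.2%. Those higher included UBD, a ubiquitin-like tag for degradation (5.55, 5.95 and 5.60), TAP1 (1.62, 1.93 and 2.61), B2M, the light chain of MHC class I (1.49, 1.84 and 2.07), and TAPBP, which loads peptides onto it (1.22, 1.32 and 1.61). The median log2 fold change of the 20 was 0.51, 0.82 and 0.99. Of 16 partners of the proteasome outside the PSM names, 0 were higher in any of the 3, and 4, 4 and 0 were lower, beside 7.21%, 9.46% and 6.49% of all genes. With TNF-a library 1 left out, 0 and 2 were higher with liproxstatin-1 and with ferrostatin-1, beside 11.8% and 12.6% of all genes. In that fit 5 and 6 were lower, beside 11.8% and 14.2%. Those lower with both compounds were ZFAND2A, an arsenite-inducible 19S partner (-1.45 and -1.23), PITHD1, TXNL1 and AKIRIN2, which imports proteasomes into the nucleus (-0.40 and -0.35). POMP, the maturation chaperone of new cores, was at 0.25, 0.47 and 0.20, none called, and at 0.40 (adjusted p = 0.136) against control without TNF-a library 1.

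NFE2L1 (NRF1) drives proteasome genes together when proteasome activity falls, after NGLY1 and DDI2 process it. Of 20 genes of this axis and of the ubiquitin system, 0, 3 and 5 were higher and 4, 4 and 3 lower in the comparisons with liproxstatin-1, with ferrostatin-1 and against control, where 7.69%, 8.84% and 8.40% of all genes were higher and 7.21%, 9.46% and 6.49% lower. Without TNF-a library 1, 4 and 6 were higher with liproxstatin-1 and with ferrostatin-1, beside 11.8% and 12.6% of all genes. In that fit 7 and 9 were lower, beside 11.8% and 14.2%. With all libraries NGLY1 was lower in each of the comparisons with liproxstatin-1, with ferrostatin-1 and against control (-0.76, -0.75 and -0.72). NFE2L1 itself was lower with either compound (-0.73, adjusted p = 0.0112, and -0.64, adjusted p = 0.0101) and at 0.07 (adjusted p = 0.818) against control, or -0.15 (adjusted p = 0.688) without TNF-a library 1. SQSTM1, the autophagy receptor p62, was higher with ferrostatin-1 (0.54) and against control (1.32). It was the one gene of these lists called with a compound alone (0.62, adjusted p = 0.0448 in ferrostatin-1 against control). Its unscaled counts in liproxstatin-1, 77897 and 88535, also lay above those in control, 62011, 54635 and 63329, although the control libraries were larger. That difference was not called. DDI2 and NFE2L2 were lower against control (-1.06 and -0.97), and by a smaller amount, still called, without TNF-a library 1 (-0.56 and -0.54).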

How the data were processed

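Strand-marked (dUTP) libraries of poly(A) RNA were sequenced as paired ends, per the labels' protocols. The authors deposited 1 table with raw read counts per gene and FPKM per gene (read fragments per length of gene and depth) for 14 libraries. The submitters' processing notes name edgeR, DESeq2, StringTie 1.3.4d, HISAT2 2.0.4 and cutadapt 1.9, with no role. No source used here gives the counting tool, its strand setting or the genome build. Columns were assigned to groups by their names. Those of TNF-a, liproxstatin-1 and ferrostatin-1 are numbered 1 and 3, while the titles are numbered 1 and 2, so these libraries are named by column number. Their 6 FPKM columns could not each be matched to 1 sample and were not used.

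Counts were tested with edgeR 4.0.16 in R 4.3.3 by the quasi-likelihood test, with TMM scaling, edgeR's default filter on low counts, 1 model of all 6 groups, a robust prior and Benjamini-Hochberg adjustment over the 22179 genes tested, with a threshold of 0.05. Libraries held 59913850 to 75838597 counts, which limits precision for low genes. No pair of libraries agreed within sampling noise. Shares used the deposited FPKM values without a pseudocount. The procedure was run on simulated data in which no library stood apart, and the outcome is not given here. Alternatives were DESeq2 1.42.0, limma 3.58.1 (voom with quality weights), other scaling and filters, only the groups compared, a replicate block, leaving out each library, other pseudocounts and, chosen after seeing the data, a prior without robust estimation and the non-overlap counts and list counts without TNF-a library 1.

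Genes were named by role: the catalytic and PA28 subunits in full, and up to 4 called genes per role or partner list by smallest p. PSMC6, PSMD14, PSME3, PSMB1, POMP, CDH1, VIL1 and the genes given with their uncalled values were named after their values were seen. The members and lists were chosen with earlier results of these data known. Promoter windows came from RefSeq (GRCh38.p14). Of the 49 members, 30 have the same start or end in GENCODE release 29 (GRCh38), and 7 have both.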

Additional observations from a re-analysis of the deposited data

How the results depend on the processing

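Over 76 pairs of a called member and a comparison, 34 kept the call in all alternatives, and of 1645 single values 271 lost it and 0 changed direction. PSMB8 and PSMB9 kept their calls in all 3 comparisons with and without TNF-a. Counts of called members moved with the method. The shares of all genes called under these methods are not given here. The member counts alone thus do not separate a move of the members from a move over all genes. In TNF-a + liproxstatin-1 against liproxstatin-1 the 9 became 21 with voom, 19 with only the groups compared and 4 with the replicate block. In TNF-a + ferrostatin-1 against ferrostatin-1 the 18 became 31, 35 and 9, and in TNF-a against control the 19 became 9 with voom and 5 with only the groups compared. In TNF-a + ferrostatin-1 against TNF-a the 3 became 12 with DESeq2 and 0 with voom, only the groups compared or the block. DESeq2 gave 9 in TNF-a + liproxstatin-1 against TNF-a, 3 in each interaction and 2 in ferrostatin-1 against control, and voom gave 3 in ferrostatin-1 and 2 in liproxstatin-1 against control. The cause was not tested. With 1 FPKM added to both genes, the PSMB9 share was 13.5% in control libraries.

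Leaving out 1 library gave 2 to 18 calls in TNF-a + liproxstatin-1 against liproxstatin-1, 7 to 28 in TNF-a + ferrostatin-1 against ferrostatin-1, 12 to 36 in TNF-a against control and 20 to 34 in their average. It gave 0 to 28 in TNF-a + ferrostatin-1 against TNF-a, 0 to 33 in TNF-a + liproxstatin-1 against TNF-a, 0 to 28 and 0 to 29 in the interactions with ferrostatin-1 and liproxstatin-1, and 0 to 2 in ferrostatin-1 against control. Where 1 library was left in a group, it was assumed to vary like the others. The highest counts in TNF-a against control, with a compound added to TNF-a and in the interactions came without TNF-a library 3. TNF-a library 1, which stood apart, was then the only library of its group. The shares of all genes called in these fits are not given beside the ranges. The PSMB8 share (percent) was 45.5 to 49.3 in TNF-a + liproxstatin-1, 45.0 to 45.7 in TNF-a + ferrostatin-1, 21.5 to 22.7 in control. The PSMB9 share was 38.2 to 40.0 in TNF-a + liproxstatin-1, 37.5 to 38.2 in TNF-a + ferrostatin-1, 10.7 to 12.3 in control. The PSMB10 share was 42.3 to 44.7 in TNF-a + liproxstatin-1, 45.3 to 45.7 in TNF-a + ferrostatin-1, 34.8 to 36.8 in control.

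The replicate numbers did not pair the libraries: 28 same-numbered pairs had correlations of deviations of -0.096 to 0.13, 1 was over 0.1, and 4 of 14 libraries were closest to one with their own number. The planned FPKM shares of TNF-a, liproxstatin-1 and ferrostatin-1 were not run, since their FPKM columns were not used. With 2 or 3 technical replicates a group, p-values cover only the spread between these libraries.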
